A study of Oryctolagus cuniculus with 16 samples.

Results

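The genes of vascular endothelial growth factor (VEGF) ligands and receptors were compared in the femoral head between a rabbit model of Perthes disease and control rabbits. The family was taken as 9 genes, namely the ligands *VEGFA*, *VEGFB*, *VEGFC* and *PGF*, the receptor tyrosine kinases *FLT1*, *KDR* and *FLT4*, and the co-receptors *NRP1* and *NRP2*. Members were found by an exact match of the gene symbol in a table of 20255 genes, without regard to their values. A row was found for 8 of the 9 genes, comprising 3 ligands and 5 receptors, and *VEGFB* was not analysed here. All 8 passed the low-count filter and were among the 15305 genes tested.

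Perthes disease is a childhood disorder in which the blood supply of the femoral head is interrupted and the epiphysis dies and is slowly rebuilt. The Perthes group held 5 wild-type rabbits in which, at the age of 8 weeks, the femoral neck had been tied with an elastic suture and the ligamentum teres cut. The label of this group gives Perthes' disease as the genotype, although the disease was made by surgery. The control group held 3 rabbits labelled as WT. Whether controls had a sham operation, their age, and the time from surgery to sampling are not given in the sources used here. Total RNA of the femoral head, depleted of ribosomal RNA, was sequenced for each rabbit.

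VEGF ligands are secreted proteins that make endothelial cells divide, migrate and open their junctions. VEGFA is made by cells short of oxygen, and in growing bone it is known from hypertrophic cartilage, where it draws vessels towards the growth plate. VEGFA signals mainly through KDR (VEGF receptor 2), while FLT1 (VEGF receptor 1) binds VEGFA, VEGFB and PGF tightly and signals weakly. VEGFC and VEGFD act on FLT4 (VEGF receptor 3), best known from lymphatic vessels. The neuropilins NRP1 and NRP2 carry no kinase, and they bind VEGF ligands together with those receptors and bind class 3 semaphorins together with plexins.

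The libraries held 26757087 to 29461482 counts, from 27331725 in the Perthes group and up to 28783082 in the control group. The least counted member, *VEGFC*, had from 172 to 386 counts in a library. Expression is given as CPM, the counts of a gene relative to the library total after scaling by the TMM method of edgeR, and fold changes come from the quasi-likelihood test of edgeR, adjusted over all genes tested. A gene is called where its adjusted p was below 0.05. Over all genes 15.1% were called, with 6.21% higher and 8.86% lower in Perthes rabbits. Marker genes of cartilage and bone were abundant in every library, with summed levels of 40113 to 156474 CPM in Perthes rabbits and 47519 to 69629 CPM in controls for the chondrocyte list. In a principal component analysis, the first component (56.1% of the variance) ran from -93.65 to 5.21 in Perthes rabbits and from 49.0 to 97.0 in controls. Perthes rabbit 2, at 5.21, lay nearest to the controls. The second component (13.1% of the variance) placed Perthes rabbit 4 apart at -78.4, against -7.51 to 27.5 for the other 7 rabbits. Sequencing batches are not named in the labels.

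Among the 8 members, 1 was called higher in Perthes rabbits and 0 were called lower. The called gene was *NRP2*, which was 1.89-fold higher, and 7 members were not called. The log2 fold changes of the 8 members were above 0 for 4 and below 0 for 4, with a median of -0.0037 beside 0.02 over all genes tested. An unadjusted p below 0.05 was reached by *NRP2* and *PGF*, or 2 of 8, against 31.9% of all genes. DESeq2 likewise called 1 member higher and 0 lower, and 0 members had a lower value with an unadjusted p below 0.05 in edgeR. A single call among 8 genes lies near the share of all genes that were called, so the count itself does not set the family apart.

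**Figure D1:**
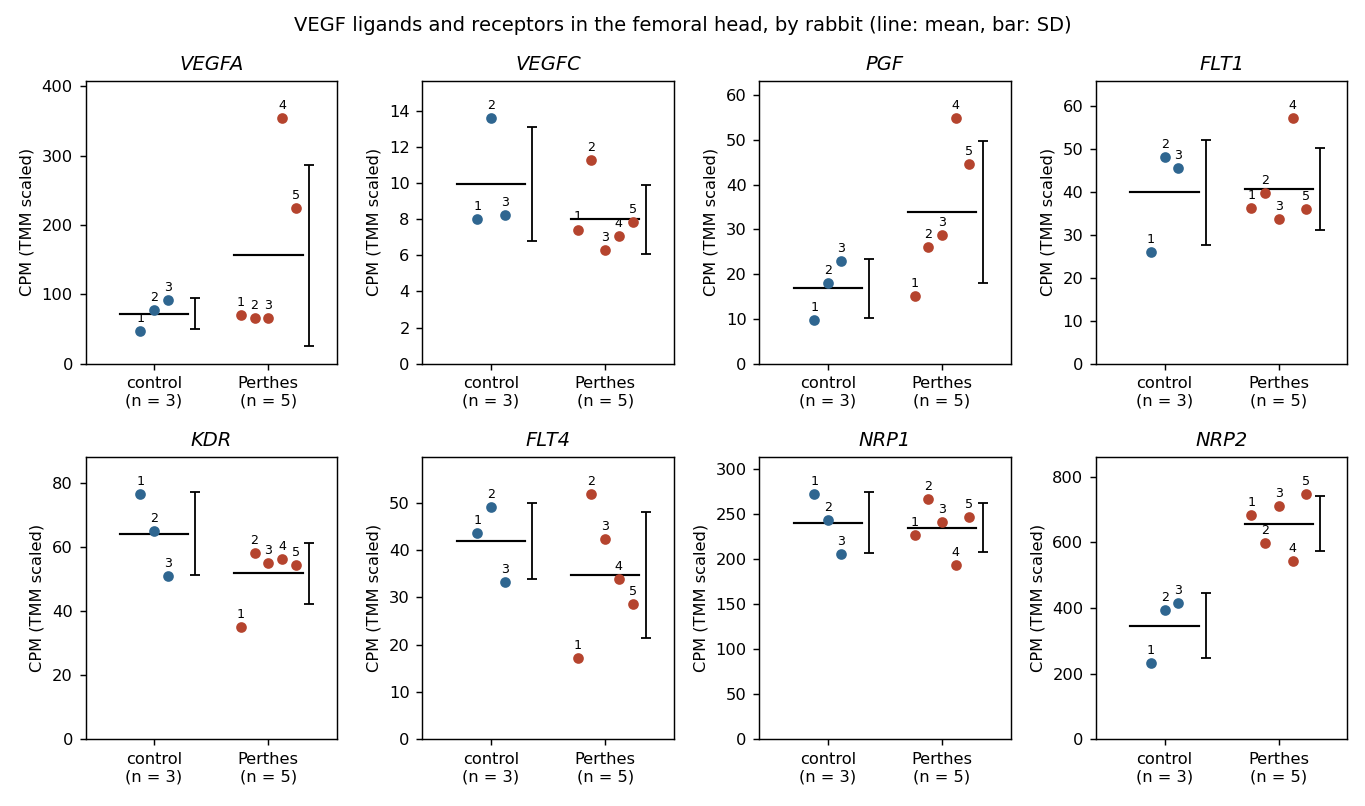
CPM (TMM scaled) of each member in each femoral head, with the rabbit's number above its point, the group mean as a line and the standard deviation as a bar (5 Perthes and 3 control rabbits). For *NRP2* the lowest Perthes rabbit (544 CPM) lies above the highest control (414 CPM), whereas the high mean of *VEGFA* in the Perthes group comes from rabbits 4 and 5 (354 and 225 CPM).

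*VEGFA* (gene 100008899), the principal angiogenic ligand, had 69.9, 65.6, 66.1, 354 and 225 CPM in Perthes rabbits 1 to 5 and 47.7, 77.5 and 91.5 CPM in control rabbits 1 to 3. Perthes rabbits 1 to 3 thus lay within the range of the controls, and rabbits 4 and 5 lay far above it. The means were 156 ± 130 CPM (SD, n = 5) and 72.2 ± 22.4 CPM (SD, n = 3). This corresponds to a log2 fold change of 1.11 (standard error 0.63, 95% interval -0.32 to 2.54, adjusted p = 0.259 by edgeR), and the two-sided exact permutation test over the rabbits gave p = 0.429. The difference was therefore not larger than the spread between rabbits. Rabbit 4 alone held 45.4% of the summed Perthes level, and without it the log2 fold change was 0.56 (adjusted p = 0.461 by edgeR). The standard deviation of log2 CPM among Perthes rabbits was 1.16, larger than that of 94.4% of the genes tested, and the highest rabbit was 5.40 times the lowest. Chondrocyte markers were also highest in Perthes rabbit 4 (a summed 156474 CPM), and their part in the *VEGFA* difference was not tested.

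*PGF* (gene 100339515), the placental growth factor that binds FLT1 but not KDR, had 15.1, 26.02, 28.8, 54.9 and 44.6 CPM in Perthes rabbits 1 to 5 and 9.72, 18.02 and 22.8 CPM in the controls. Perthes rabbits 2 to 5 lay above every control and rabbit 1 did not, with rabbits 4 and 5 again the highest. The gene was 1.01 higher on the log2 scale (standard error 0.43, 95% interval 0.03 to 1.98), with an unadjusted p of 0.0444 and an adjusted p of 0.145 by edgeR. *PGF* did not pass the adjustment over all genes, and the exact permutation test gave p = 0.143. Without Perthes rabbit 4 its log2 fold change was 0.76 (adjusted p = 0.219 by edgeR).

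*VEGFC* (gene 100338211), the main ligand of FLT4, had 7.43, 11.3, 6.32, 7.09 and 7.86 CPM in Perthes rabbits and 8.003, 13.6 and 8.25 CPM in controls. All Perthes rabbits but rabbit 2 lay just below the lowest control. For *VEGFC* the log2 fold change came to -0.32 (standard error 0.26, 95% interval -0.90 to 0.27, adjusted p = 0.430 by edgeR), within the spread between rabbits, and without control rabbit 2 it was -0.02. *VEGFD*, the other ligand of FLT4 and no member here, was scarcely counted, with 29 to 55 counts in a library and a log2 fold change of 0.08 (adjusted p = 0.874 by edgeR).

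The receptor tyrosine kinases had log2 fold changes between -0.31 and 0.03, and none was called. *KDR* (gene 100008607), the main signalling receptor of VEGFA, had 35.1, 58.3, 55.2, 56.2 and 54.3 CPM in Perthes rabbits and 76.7, 64.95 and 50.9 CPM in controls. Control rabbits 1 and 2 exceeded all Perthes rabbits, and control rabbit 3 lay below 4 of them. For *KDR* the log2 fold change came to -0.31 (standard error 0.21, 95% interval -0.78 to 0.16, adjusted p = 0.336 by edgeR). It was -0.16 without control rabbit 1 and -0.20 without Perthes rabbit 1.

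*FLT1* (gene 100343352), which binds VEGFA and also exists as a soluble trap for it, had 36.3, 39.7, 33.7, 57.2 and 36.04 CPM in Perthes rabbits and 25.9, 48.1 and 45.6 CPM in controls. The groups overlapped throughout, apart from Perthes rabbit 4 above and control rabbit 1 below all others. The means were 40.6 ± 9.52 CPM (SD, n = 5) and 39.9 ± 12.2 CPM (SD, n = 3), and the log2 fold change was 0.03 (standard error 0.25, 95% interval -0.54 to 0.59, adjusted p = 0.952 by edgeR). The interval spans changes in either direction, and with library totals in place of TMM factors the value was -0.07. The table also lists LOC103351855, described there as a VEGF receptor 1, with 12.2 to 15.3 CPM in Perthes rabbits and 8.15 to 14.4 CPM in controls. How reads were shared between this row and *FLT1* is not known, and with both summed the log2 fold change was 0.06 (adjusted p = 0.868 by edgeR). This sum was chosen after the data were seen.

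*FLT4* (gene 100008829), the receptor of VEGFC and VEGFD, had a standard deviation of log2 CPM among Perthes rabbits of 0.61, against 0.30 for *FLT1* and for *KDR*. It had 17.1, 51.9, 42.2, 33.9 and 28.6 CPM in Perthes rabbits 1 to 5 and 43.7, 49.01 and 33.2 CPM in controls. Rabbits 1 and 5 lay below every control and rabbit 2 above every control. For *FLT4* the log2 fold change came to -0.27 (standard error 0.32, 95% interval -0.99 to 0.45, adjusted p = 0.590 by edgeR). This value was -0.0988 without Perthes rabbit 1 and -0.15 without control rabbit 2, against -0.46 without Perthes rabbit 2 and -0.42 without control rabbit 3.

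Of the co-receptors, *NRP2* was called and *NRP1* was not, and their difference is tested by their ratio. *NRP1* (gene 100345279), the neuropilin that pairs with KDR, had 227, 267, 241, 193 and 247 CPM in Perthes rabbits and 273, 244 and 205 CPM in controls. The groups covered nearly the same range, with means of 235 ± 27.3 CPM (SD, n = 5) and 240.4 ± 33.8 CPM (SD, n = 3). With a log2 fold change of -0.03 (standard error 0.17, 95% interval -0.43 to 0.36, adjusted p = 0.911 by edgeR), the sign of *NRP1* turned without Perthes rabbit 4 or without control rabbit 1 (0.03 and 0.07). Among Perthes rabbits it had the smallest standard deviation of log2 CPM of the 8 members, 0.17, and only 13.0% of the genes tested had a smaller one.

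*NRP2* (gene 100353265), the neuropilin that pairs with FLT4 and binds VEGFC, had 682, 597, 709, 544 and 748 CPM in Perthes rabbits 1 to 5 and 232, 394 and 414 CPM in control rabbits 1 to 3. All 5 Perthes rabbits lay above all 3 controls, as groups did without overlap in either direction for 25.2% of the genes tested. The means were 656 ± 83.9 CPM (SD, n = 5) and 347 ± 99.99 CPM (SD, n = 3). On the log2 scale *NRP2* was 0.92 higher (standard error 0.24, 95% interval 0.37 to 1.47, adjusted p = 0.0353 by edgeR), and the interval corresponds to 1.29-fold to 2.76-fold. The exact permutation test gave p = 0.0357, the smallest that 5 rabbits against 3 allow, and DESeq2 gave an adjusted p of 0.00169. *NRP2* ranked 1785th by p among the 15305 genes, of which 2307 were called. The call was narrow, as it was kept in 3 of the 8 fits that left out 1 rabbit. Without one rabbit at a time the log2 fold change stayed between 0.70 and 1.07, and without Perthes rabbit 4 it was 0.98 (adjusted p = 0.0307 by edgeR). The adjusted p by edgeR then rose past 0.05 without Perthes rabbits 1, 3 or 5 (0.0554, 0.0797 and 0.0816) and without control rabbits 1 or 2 (0.0932 and 0.0918), and with library totals in place of TMM factors it was 0.0631.

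**Figure D2:**
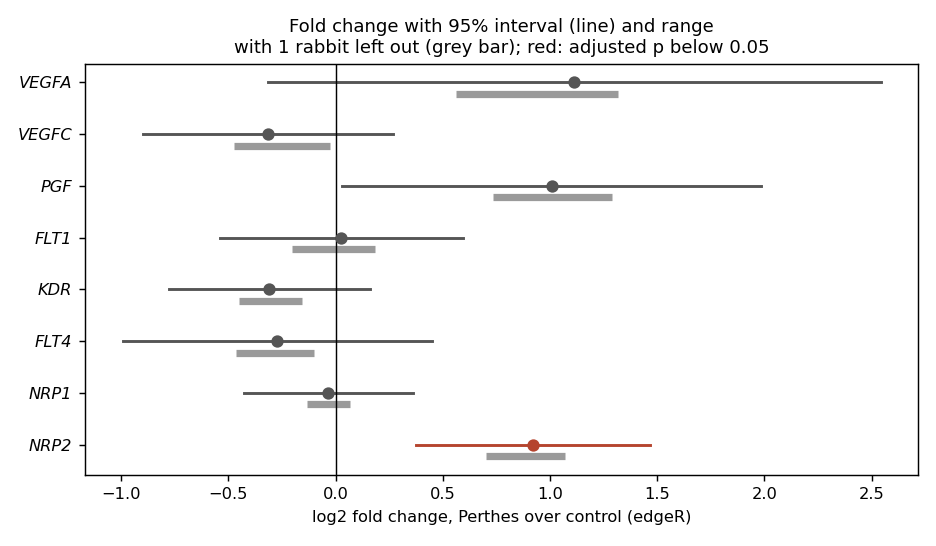
The log2 fold change of each member, Perthes over control, as a point with its 95% interval as a thin line, above the range of values with 1 rabbit left out at a time as a grey bar. *NRP2* (0.92) has an interval above 0 and was the called member, *PGF* (1.01) has an interval that starts at 0.03, and that of *VEGFA* (1.11) runs from -0.32 to 2.54.

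Ratios of counts within a library do not depend on the scaling between libraries, and 5 of them were compared by exact permutation tests, adjusted over the 5. A ratio also holds the difference in length of its transcripts, so its change between rabbits is of interest and not its size. The *NRP1*/*NRP2* ratio was 0.332, 0.447, 0.340, 0.356 and 0.330 in Perthes rabbits and 1.18, 0.618 and 0.495 in controls. Every Perthes rabbit was thus below every control, with a mean difference of -0.99 on the log2 scale (two-sided exact permutation p = 0.0357, adjusted p = 0.179), which did not pass the adjustment over the 5 ratios. This p is the smallest that 5 rabbits against 3 allow, so this ratio alone could not have passed the adjustment. Without control rabbit 1 the difference was -0.63.

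The *FLT1*/*KDR* ratio, the decoy receptor against the signalling one, was 1.03, 0.681, 0.611, 1.02 and 0.664 in Perthes rabbits and 0.338, 0.741 and 0.896 in controls. The groups overlapped (difference 0.36 on the log2 scale, exact permutation p = 0.429), and without control rabbit 1 the difference was -0.06. The *VEGFC*/*VEGFA* ratio was lowest in Perthes rabbits 4 and 5 (0.0201 and 0.0350), against 0.0958 to 0.172 in the other Perthes rabbits and 0.0903 to 0.176 in controls (difference -1.08, exact permutation p = 0.321), and without Perthes rabbit 4 the difference was -0.65. The *PGF*/*VEGFA* and *FLT4*/*KDR* ratios differed by 0.18 and -0.04 (exact permutation p = 0.679 and 0.929), and their groups overlapped.

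**Figure D3:**
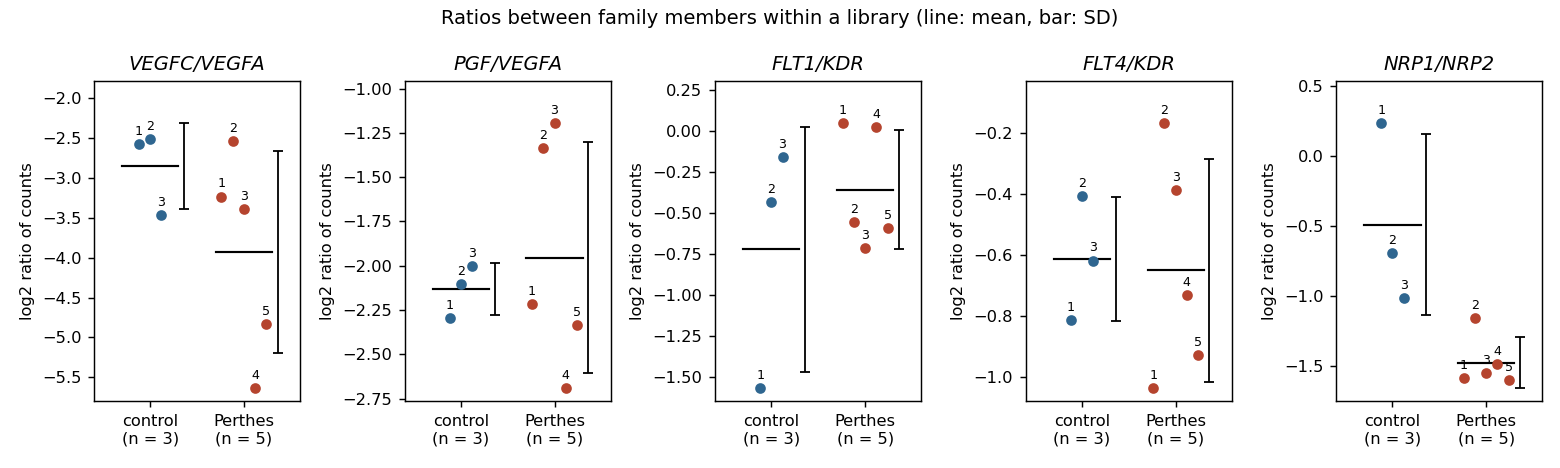
The log2 ratio of counts of 5 pairs of members within each library, by rabbit number, with the group mean as a line and the standard deviation as a bar (3 control and 5 Perthes rabbits, each panel with its own axis). The *NRP1*/*NRP2* ratio is lower in each Perthes rabbit than in each control, and the groups overlap in the other 4 panels.

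In bulk tissue, fewer cells of a type and less RNA per cell cannot be told apart. The members were therefore also set against 16 endothelial marker genes that include no member. These markers had summed levels of 422 to 617 CPM in Perthes rabbits and 441 to 491 CPM in controls, with 0 of 16 called higher by edgeR (4 at an unadjusted p below 0.05, and 4 by DESeq2) and 1 called lower, and a median log2 fold change of 0.36. *PECAM1*, an adhesion molecule of endothelial junctions, had a log2 fold change of -0.30 (adjusted p = 0.421 by edgeR), and *CDH5*, the VE-cadherin of those junctions, had 0.40 (adjusted p = 0.219 by edgeR). The called marker was *ERG*, an endothelial transcription factor, at -0.59 (adjusted p = 0.0359 by edgeR).

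Relative to the mean log2 CPM of the 16 markers, *KDR* stood at 1.06, 1.496, 1.16, 1.41 and 1.51 in Perthes rabbits and at 2.36, 1.82 and 1.55 in controls. The groups did not overlap, and the difference was -0.59 on the log2 scale (two-sided exact permutation p = 0.0357, adjusted p = 0.143 over the 8 members), or -0.36 without control rabbit 1. The level of *NRP2* against the markers stood at 4.68 to 5.34 in Perthes rabbits and at 3.96 to 4.57 in controls, likewise without overlap (difference 0.68, exact permutation p = 0.0357, adjusted p = 0.143). *FLT4* came next with a difference of -0.62 (exact permutation p = 0.0714, adjusted p = 0.190), and *FLT1* with -0.22 had an exact permutation p of 0.464. None of the 8 passed the adjustment. The smallest p that 5 rabbits against 3 allow is 0.0357, and the 2 members that reached it had an adjusted p of 0.143. So few members could not have passed this adjustment, whatever the size of their differences. With *PECAM1* and *CDH5* alone as the reference, the differences of *KDR* and *NRP2* were -0.39 and 0.88.

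The genes around the family were described in 11 lists, written from general knowledge of the pathway but with earlier results of these data known. Their shares of calls are therefore a description and no test. Of the 170 genes tested in them, 23 were called higher and 7 lower, or 13.5% and 4.12%, beside 6.21% and 8.86% of all genes. These counts varied with the rabbit left out. Without control rabbit 2, edgeR called 0 of all genes in either direction, so every call was lost (1624 higher and 2098 lower had an unadjusted p below 0.05), and without control rabbit 1 the lists kept 2 calls higher and 2 lower. Without Perthes rabbit 3 the counts were 9 and 5, without Perthes rabbit 5 they were 7 and 3, and without Perthes rabbit 4 they were 21 and 9. DESeq2 called 40 higher and 12 lower. In the 5 lists on maturation, semaphorins, plexins, modulators and antagonists, edgeR called 0 genes lower, while 0, 2, 0, 1 and 1 were lower at an unadjusted p below 0.05 and DESeq2 called 0, 1, 0, 0 and 1 lower.

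**Figure D4:**
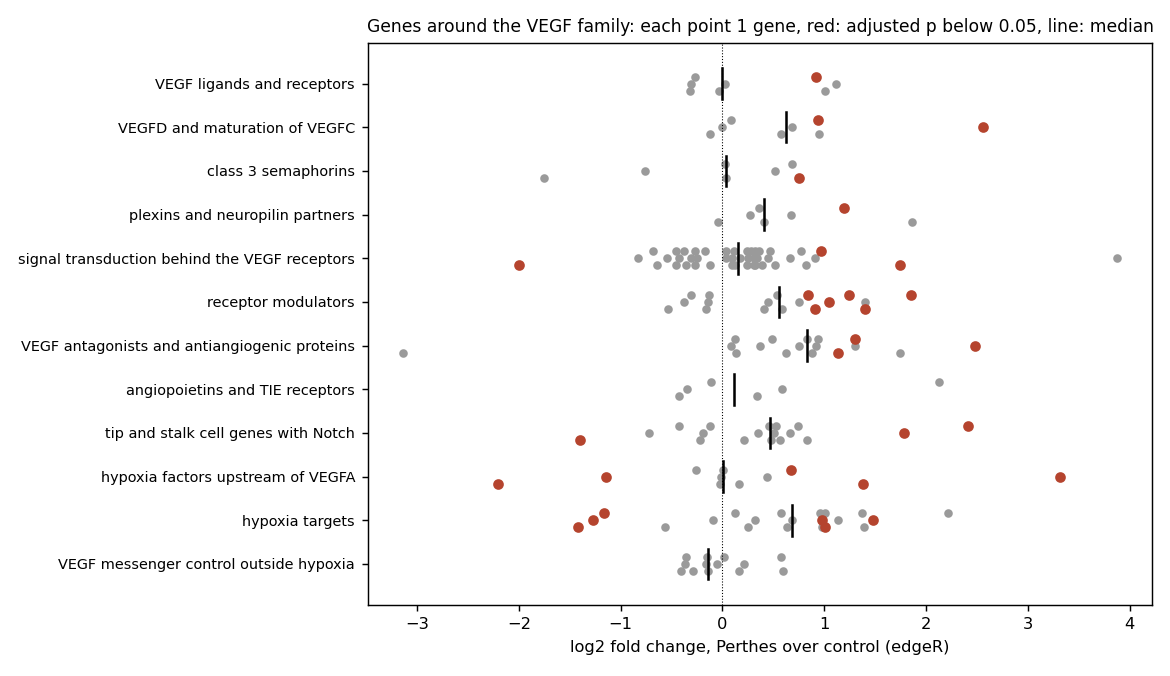
The log2 fold change of each tested gene (1 point each), Perthes over control, in the VEGF family and in 11 lists around it, with called genes in red and the median of a list as a black line. Lists of receptor modulators and of antiangiogenic proteins have medians of 0.56 and 0.83 and hold no gene called lower, and the hypoxia lists hold calls on both sides.

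Among *VEGFD* and the proteins that mature the FLT4 ligands, 2 of 8 genes were called higher and 0 lower (median log2 fold change 0.63). *CTSD*, the lysosomal protease cathepsin D, had a log2 fold change of 2.56 (adjusted p = 0.0192 by edgeR), although Perthes rabbit 4 (563 CPM) lay close to the controls (333 to 497 CPM). *FURIN*, a proprotein convertase that cleaves VEGFC, had 144 to 232 CPM in Perthes rabbits and 88.8 to 120 CPM in controls (log2 fold change 0.94, adjusted p = 0.0208 by edgeR). The groups were apart for both genes, as they were in either direction for 25.2% of all genes tested.

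Of the partners of the neuropilins, 1 of 7 class 3 semaphorins and 1 of 7 plexins and other partners were called higher, and 0 lower. *PLXNA1*, a plexin that signals for semaphorins bound to neuropilins, had 108, 106, 149, 125 and 125 CPM in Perthes rabbits and 43.7, 54.8 and 62.5 CPM in controls. *PLXNA1* was higher by 1.19 on the log2 scale (standard error 0.19, adjusted p = 0.0122 by edgeR), and it was called in 7 of the 8 fits that left out 1 rabbit. *SEMA3F*, a ligand of NRP2 that competes with VEGF and repels endothelial cells, had 19.2, 19.3, 24.4, 31.3 and 22.1 CPM in Perthes rabbits and 13.2, 14.3 and 13.8 CPM in controls. All Perthes rabbits thus exceeded all controls (log2 fold change 0.75, standard error 0.20, adjusted p = 0.0337 by edgeR), and the call was kept in 3 of those 8 fits. The median log2 fold changes of these lists were 0.04 for the semaphorins and 0.41 for plexins and partners, and with library totals the semaphorin median was -0.06.

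Behind the receptors, 3 of 44 signal transduction genes were called, 2 higher and 1 lower (median 0.15). *HSPB1*, a heat shock protein of the actin response to VEGFA, had a log2 fold change of 1.74 (adjusted p = 0.0182 by edgeR), and *FYN*, a Src family kinase, had 0.96 (adjusted p = 0.0446 by edgeR). *PRKCB*, a protein kinase C that is also abundant in blood cells, had 10.2 to 30.6 CPM in Perthes rabbits and 52.9 to 87.9 CPM in controls, a log2 fold change of -2.002 (adjusted p = 0.0128 by edgeR). With library totals this list had 1 call higher and 4 lower.

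Of the proteins that hold or tune the receptors at the cell surface, edgeR called 6 of 18 higher and 0 lower (median 0.56). *MYOF*, a membrane protein reported to stabilise KDR, had a log2 fold change of 1.85 (adjusted p = 0.0215 by edgeR). *CD63*, a tetraspanin of lysosomes and secreted vesicles, had 1.39 (adjusted p = 0.0144 by edgeR). *HSPG2*, the matrix proteoglycan perlecan that stores growth factors, had 2004 to 4317 CPM in Perthes rabbits and 999 to 1442 CPM in controls (log2 fold change 1.24, adjusted p = 0.0345 by edgeR). The other 3 were the integrin subunits *ITGAV*, *ITGA5* and *ITGB1*, with log2 fold changes of 1.05, 0.84 and 0.91. Their calls were kept in 4, 2 and 4 of the 8 fits that left out 1 rabbit. For *ITGA5* the adjusted p by edgeR was 0.0655 without Perthes rabbit 4 and 0.0652 with library totals.

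Among antagonists of VEGF and other antiangiogenic proteins, 3 of 17 genes were called higher and 0 lower (median 0.83, or 0.55 without Perthes rabbit 4). *THBS2*, a matrix thrombospondin that restrains vessel growth, had 269 to 776 CPM in Perthes rabbits and 50.2 to 178 CPM in controls. On the log2 scale the difference was 2.48 (standard error 0.52, adjusted p = 0.0182 by edgeR). *VASH1*, the feedback inhibitor vasohibin, had a log2 fold change of 1.30 (adjusted p = 0.0122 by edgeR), and *VASH2*, its homologue, had 1.14 (adjusted p = 0.0296 by edgeR). *VASH2* is known to promote vessel growth, against the name of the list. *COL4A3*, a collagen IV chain whose fragment tumstatin restrains vessels, lay the other way, with 1.32 to 46.96 CPM in Perthes rabbits and 81.4 to 130.4 CPM in controls. Its groups were apart, as they were in either direction for 25.2% of all genes tested. By edgeR *COL4A3* was not called (log2 fold change -3.13, adjusted p = 0.0683), whereas DESeq2 called it lower.

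The angiopoietin system, which steadies vessels through the receptor TEK, had 0 of 6 genes called in either direction by edgeR (median 0.11), with 1 higher and 0 lower at an unadjusted p below 0.05 and 1 called higher by DESeq2. *ANGPT1*, its agonist, and *ANGPT2*, its context-dependent antagonist, had log2 fold changes of 0.34 and 0.58 (adjusted p = 0.463 and 0.336 by edgeR). *TEK* had -0.35 (adjusted p = 0.312 by edgeR).

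Of 18 genes of tip and stalk cells, the leading and trailing cells of a sprout, 2 were called higher and 1 lower (median 0.46). *ADM*, the vasodilator adrenomedullin, had 11.4, 13.1, 11.4, 34.9 and 27.7 CPM in Perthes rabbits and 1.43, 3.49 and 6.15 CPM in controls (log2 fold change 2.41, adjusted p = 0.0269 by edgeR). *APLN*, the apelin of tip cells, had 13.3, 10.2, 14.03, 32.9 and 23.6 CPM against 3.18, 6.21 and 6.95 CPM (log2 fold change 1.79, adjusted p = 0.0294 by edgeR). In both genes Perthes rabbits 4 and 5 were the highest, as they were for *VEGFA*. *CXCR4*, a chemokine receptor that blood cells also carry, had 38.8 to 54.7 CPM in Perthes rabbits and 81.3 to 184 CPM in controls (log2 fold change -1.40, adjusted p = 0.0136 by edgeR).

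The factors that read oxygen and set *VEGFA* transcription gave 3 of 11 genes called higher and 2 lower (median 0.01). *EGLN3*, an oxygen-sensing prolyl hydroxylase that hypoxia itself induces, had 31.1, 16.3, 18.9, 166 and 88.8 CPM in Perthes rabbits and 5.68, 4.69 and 8.91 CPM in controls (log2 fold change 3.32, adjusted p = 0.0338 by edgeR). *HIF1A*, the oxygen-regulated subunit of hypoxia-inducible factor 1, had 544, 303, 234.4, 532 and 411 CPM in Perthes rabbits and 89.0, 144 and 234.3 CPM in controls. Its log2 fold change was 1.38 (adjusted p = 0.0455 by edgeR), and the call was kept in 2 of the 8 fits that left out 1 rabbit. The adjusted p by edgeR was 0.0634 without Perthes rabbit 4 and 0.0655 with library totals. *EGLN1*, a further hydroxylase of this family, had a log2 fold change of 0.67 (adjusted p = 0.0427 by edgeR) and was likewise called in 2 of those 8 fits. Its adjusted p by edgeR was 0.0557 without Perthes rabbit 4 and 0.102 with library totals. *EPAS1*, the related HIF-2 subunit of endothelium, had 0.16 (adjusted p = 0.704 by edgeR). Both genes called lower, *HIF3A* at -2.21 and *CITED2* at -1.14 (adjusted p = 0.0187 and 0.0159 by edgeR), restrain HIF activity.

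Of 21 target genes of hypoxia, edgeR called 3 higher and 3 lower (median 0.69, or 0.43 without Perthes rabbit 4). DESeq2 called 8 higher and 3 lower. At an unadjusted p below 0.05 by edgeR, 10 were higher and 3 lower, which became 3 and 3 without control rabbit 2. The 3 called higher by edgeR were *VLDLR*, a lipoprotein receptor, *ANKRD37* and the collagen hydroxylase *P4HA2*. Their log2 fold changes were 1.48, 1.01 and 0.98 (adjusted p = 0.0216, 0.0317 and 0.0427 by edgeR). The lower ones were the glycolytic regulator *PFKFB4*, the mitophagy receptor *BNIP3L* and the MYC antagonist *MXI1*, with -1.42, -1.28 and -1.16 (adjusted p = 0.0326, 0.0173 and 0.0265 by edgeR). *BNIP3L* is also used by maturing red cells. Of 13 genes that control VEGF messengers by other routes, 0 were called by edgeR or by DESeq2 (median -0.14, with 0 higher and 1 lower at an unadjusted p below 0.05), and the lowest p belonged to *SP1* and *HNRNPA2B1* (log2 fold changes of -0.41 and -0.36, adjusted p = 0.121 and 0.216 by edgeR).

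Part of the genes in these lists had the same 2 highest libraries as *VEGFA*, in either order. Its highest levels were in Perthes rabbits 4 and 5, and 597 of the 15305 genes tested (3.90%) also had these as their 2 highest libraries. In the list of hypoxia targets 11 of 21 genes (52.4%) did so, among them *LDHA*, *PGK1*, *ENO1*, *ALDOA*, *BNIP3* and *NDRG1*. In the other lists the share ran from 0% to 18.2%, and among the members *PGF* shared the pattern with *VEGFA*. This is a description with no test, as the rabbits were picked by *VEGFA* itself and genes of a list are not independent. The count was made after the values were seen.

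*CA9*, a carbonic anhydrase of oxygen-starved cells, had 11.96, 15.2, 12.8, 81.3 and 35.3 CPM in Perthes rabbits 1 to 5 and 3.00, 4.55 and 12.6 CPM in controls. The glucose transporter gene *SLC2A1* had 36.2, 27.2, 48.6, 107 and 55.9 CPM against 12.9, 16.8 and 33.0 CPM. *ANGPTL4*, a secreted regulator of lipoprotein lipase and of vessels, had 12.5 CPM in each of Perthes rabbits 1 to 3, 59.9 and 58.6 CPM in rabbits 4 and 5, and 6.02 to 8.003 CPM in controls. Rabbits 4 and 5 stood above the other Perthes rabbits in all of them. Over the whole groups these genes were not called by edgeR, with adjusted p-values of 0.0896, 0.0814 and 0.0626. DESeq2 called each of them higher in Perthes rabbits, with adjusted p-values of 0.00929, 0.0212 and 0.00412. *CA9* and *SLC2A1* were picked after their values were seen.

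**Figure D5:**
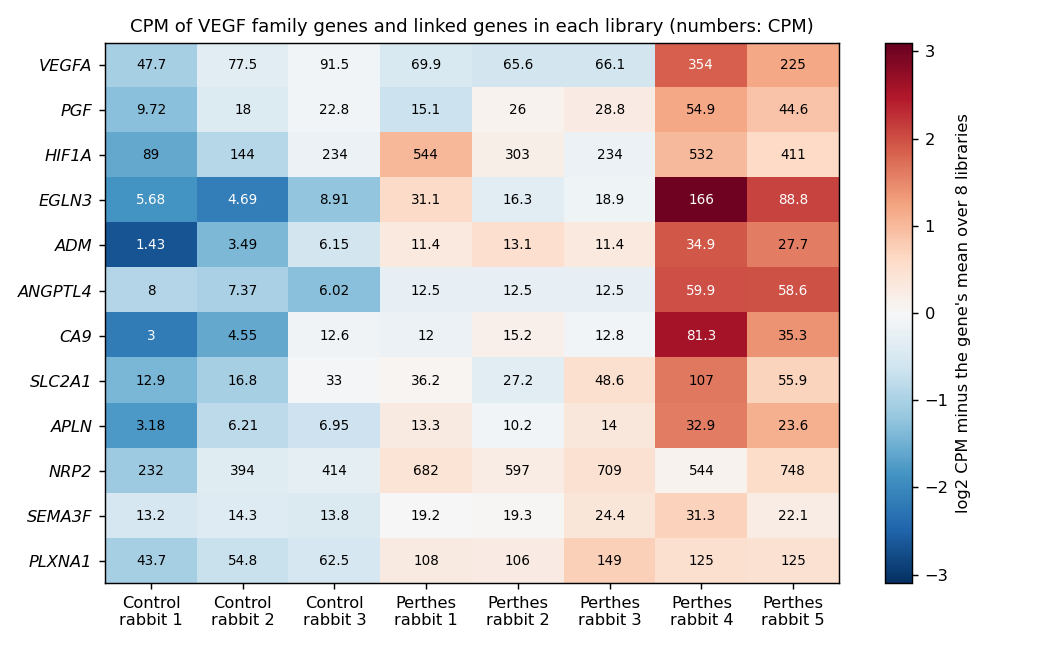
CPM of 3 family members and 9 linked genes in each library (numbers), with colour for log2 CPM minus the mean of the gene over the 8 libraries. *VEGFA*, *PGF*, *EGLN3*, *ADM*, *ANGPTL4*, *CA9*, *SLC2A1* and *APLN* are highest in Perthes rabbits 4 and 5, whereas *NRP2* and *PLXNA1* are spread over all Perthes rabbits. *HIF1A* is highest in Perthes rabbits 1 and 4 (544 and 532 CPM).

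Over all named genes, the patterns most like those of the members were found by the root mean square difference of centred log2 CPM over the 8 libraries, among 12309 genes. *CLCF1*, a cytokine of the IL-6 family, was nearest to *VEGFA* (0.313), followed by *MYO15A* (0.338). For *PGF* they were *SOCS1*, a cytokine signalling inhibitor, and *GJB5* (0.204 and 0.240), and for *VEGFC* they were *SIK2* and *PPP2R5A* (0.180 and 0.205). The nearest gene of each ligand was thus farther away than the nearest gene of any receptor, which lay at 0.0411 to 0.129. The distance was not scaled by a gene's own spread between rabbits, so it cannot set ligands against receptors. Some neighbours had low levels, such as *CLCF1*, *MYO15A* and *SOCS1* at 1.04 to 10.3, 0.36 to 4.62 and 0.71 to 4.77 CPM. *AKT2* and *ASXL1* followed *KDR* (0.0628 and 0.0673), *XKR8* and *DHX35* followed *NRP1* (0.0411 and 0.0439), and *SH3RF1* and *BTG1* followed *FLT1* (0.111 and 0.116). *FAHD1* and *BATF3* were nearest to *FLT4* (0.129 and 0.155). For *NRP2* the nearest were *RILPL1* (0.0841), itself called higher with a log2 fold change of 0.89 (adjusted p = 0.0181 by edgeR), and *EXTL2* (0.105), with 0.80 (adjusted p = 0.0564 by edgeR).

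Markers of other cell types moved with the groups, and their part in the differences of *NRP2* and of the lists was not tested. Of the macrophage list, 5 of 10 genes were called higher and 1 lower, with summed levels of 2646 to 8897 CPM in Perthes rabbits and 1110 to 2008 CPM in controls. Osteoclast markers had 2 of 8 called higher and 0 lower (2900 to 5843 CPM against 1357 to 2460 CPM), and fibroblast and stromal markers 3 of 9 higher and 0 lower (14875 to 26104 CPM against 1959 to 9201 CPM). Pericyte and smooth muscle markers had 4 of 10 higher and 0 lower (1142 to 1631 CPM against 550 to 867 CPM). The summed levels of these 4 lists did not overlap between the groups.

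Blood cell markers had lower summed levels in each Perthes rabbit than in each control. Neutrophil markers had 3 of 6 called lower by edgeR, with 6 lower at an unadjusted p below 0.05 (25.1 to 1508 CPM against 5747 to 18652 CPM). Erythroid markers had 0 of 8 called by edgeR, although 8 were lower at an unadjusted p below 0.05 and 4 were called lower by DESeq2 (33.0 to 2473 CPM against 5103 to 6086 CPM). Chondrocyte and osteoblast lists had 0 of 9 and 0 of 10 called by edgeR, with 3 and 2 higher at an unadjusted p below 0.05 and 0 and 1 called higher by DESeq2. The chondrocyte list had a median log2 fold change of 1.01, which was 0.21 without Perthes rabbit 4 and 0.67 without control rabbit 2, and in both of these fits 0 of its genes had an unadjusted p below 0.05. The adipocyte and skeletal muscle lists had 0 of 5 and 0 of 4 called by edgeR and by DESeq2, with 0 and 1 lower at an unadjusted p below 0.05. In the list of marrow sinusoid markers 1 of 6 genes was called higher and 2 lower, with the lectins *CLEC4G* and *CLEC1B* at log2 fold changes of -4.37 and -3.03 and the scavenger receptor *STAB1* at 1.53. Of 5 lymphatic markers edgeR called 0 higher (1 at an unadjusted p below 0.05) and 2 lower, whereas DESeq2 called 1 higher and 2 lower. The defining lymphatic genes *PROX1* and *CCL21* stayed at or below 1.69 CPM in every library. Whether the called genes of the sinusoid and lymphatic lists came from vessel cells or from other cells of the bulk tissue was not tested. Of 4 genes of RNA quality and stress, 1 was called higher (*JUN*, 1.45) and 0 lower.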

How the data were processed

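Total RNA-seq of 5 Perthes and 3 control rabbits was used, grouped by their labels, and the small RNA libraries were not used here. Control rabbit 3 is titled replicate 2, as is control rabbit 2, and was numbered 3 by its sample code. The authors mapped reads to the rabbit assembly with HISAT2 2.0.4 and used RSEM 1.1.17 and HTSeq 1.99.2 for gene levels, per the labels and methods. They deposited expected counts per gene, unnormalized and estimated where a read could come from several genes. As many as 10.7% of a library's values had decimals, and all were rounded. A further 8 columns of per-sample values, identical to those used, were left out, and whether counting used the strand is not given in the sources used here.

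Genes were filtered with filterByExpr, scaled by TMM (factors 0.928 to 1.08) and tested in R 4.3.3 with the quasi-likelihood test of edgeR 4.0.16, p-values being adjusted by Benjamini-Hochberg over 15305 genes, and the steps were tested on simulated data. The biological coefficient of variation was 0.361, so variation between rabbits and not depth limited precision. Log2 CPM used a prior count of 2, and ratios 0.5 added counts. Exact two-sided permutation tests (scipy 1.17.1, Python 3.11.15) used all 56 divisions of the rabbits. P-values set the difference between the groups against the spread between these rabbits.

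The members, gene lists and tests were chosen with earlier results of these data known. Named genes were all members, up to 3 called genes per list and direction by size of change (or the 2 of lowest p), some vessel and hypoxia genes fixed by name, and the 2 nearest patterns per member. Some genes were named after their values were seen. These were *CA9*, *SLC2A1*, *COL4A3*, the genes listed as sharing the 2 highest libraries of *VEGFA*, and the 3 integrins. The endothelial, sinusoid, lymphatic and stress markers other than *PECAM1*, *CDH5* and *TEK* were also named after their values were seen. The alternatives were DESeq2 1.42.0, its size factors, library totals, other low-count filters, stricter thresholds, the replicate number as a block, other added counts, a shorter marker list, each rabbit left out and *FLT1* summed with LOC103351855. All 8 members matched a RefSeq gene table of another assembly, mOryCun1.1, which was used for nothing else.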

Additional observations from a re-analysis of the deposited data

Results flagged for a closer look

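Outlying rabbits were sought in 13 sets of values of the 5 Perthes rabbits, the CPM of 8 members and the log2 of 5 ratios. In each, the gap between the extreme rabbit and its neighbour was compared with the 95% critical value of Dixon's test, 0.710 of the range. Chance marks about 1 set in 20, and 3 of the 13 were marked. *FLT1* was high in Perthes rabbit 4 at 57.2 CPM (gap 0.746 of the range). *KDR* was low in Perthes rabbit 1 at 35.1 CPM (0.830). The *NRP1*/*NRP2* ratio was high in Perthes rabbit 2 at 0.447 (gap 0.752 on the log2 scale), on the side of the controls but still below the lowest of them at 0.495. *VEGFA*, whose rabbits 4 and 5 were both high, was not marked (0.449).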

How the results depend on the processing

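*NRP2* was higher in Perthes rabbits under every alternative run, but its call did not hold under all of them. The number of members called higher was 0 with library totals alone, 0 with the replicate number as a block, 0 where log2 fold changes beyond 1 were asked for, and 0 under the study's own limits (beyond 2 with an adjusted p below 1e-05). It ranged from 0 to 1 without one rabbit at a time, and *NRP2* was called in 3 of those 8 fits. Over all genes DESeq2 called 1700 higher. Without one rabbit at a time edgeR called 0 to 1267 genes higher and 0 to 1628 lower, and in the lists 0 to 27 higher and 0 to 9 lower. DESeq2 called 40 list genes higher and 12 lower. Library totals gave 678 genes higher and 1705 lower, 71.5% lower in place of 58.8% (951 and 1356), and moved the median of all genes by -0.09.

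The labels do not state that replicate numbers pair the rabbits, and Perthes rabbits 4 and 5 have no control of their number. Deviations of same-numbered rabbits correlated at -0.317, 0.161 and -0.238, and so few values cannot settle whether rabbits were paired. The block also relies on the number of control rabbit 3, whose title gives replicate 2. With the replicate block 0 genes were called higher and 0 lower (1504 and 1648 at an unadjusted p below 0.05), with 0 and 0 in the lists. There *NRP2* had a log2 fold change of 0.98 (adjusted p = 0.174 by edgeR), *VEGFA* -0.0543, *FLT1* -0.0773 and *NRP1* 0.0333, the last 3 with turned signs. *FLT1* also turned with library totals (-0.0741). Without one rabbit at a time, signs turned within the ranges of *FLT1* (-0.21 to 0.18), *NRP1* (-0.136 to 0.0684), *PGF*/*VEGFA* (-0.00987 to 0.364), *FLT1*/*KDR* (-0.0608 to 0.643) and *FLT4*/*KDR* (-0.158 to 0.0658). The cause of these shifts was not tested.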
